A study of Mus musculus with 18 samples.

Results

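The genes of the 2 chaperonins of the mouse cell were followed in libraries labelled as T cells and cultured with activating antibodies. These were the 8 subunits of the cytosolic chaperonin CCT (Tcp1, Cct2, Cct3, Cct4, Cct5, Cct6a, Cct7 and Cct8), and Hspd1 and Hspe1, which encode mitochondrial HSP60 and its partner HSP10. The genes were taken by name from the deposited count table, which makes 10 of 55487 genes, and all 10 were among the 12693 genes with enough counts to be tested. CCT is a ring-shaped machine, built from a different subunit at each position, that closes over newly made proteins and folds actin, tubulin and many WD40 proteins, some of which are handed to it by the prefoldin complex. HSP60 is a ring of identical subunits in the mitochondrial matrix, closed by a lid of HSP10, and folds proteins that have been imported into mitochondria. CCT is known to be more abundant in growing and dividing cells, and activated T cells grow and divide quickly.

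Messenger RNA was counted in 18 libraries labelled as spleen T cells sorted by flow cytometry. The strains were Foxp3 YFP/cre Ebi3 -/- (here KO) and Foxp3 YFP/cre (here WT), so that YFP/cre in Foxp3, which encodes the defining factor of regulatory T cells, was common to every mouse, and the KO mice also lacked Ebi3, whose product pairs with other chains to form IL-27 and IL-35. Each strain gave 3 libraries labelled Treg, 3 labelled CD8 and 3 labelled CD4, and the labels give no ages and no sort gates. All cells were put through an activating culture: they spent 72 h with IL-2 at 10 ng/ml and with 2 antibodies, anti-CD3 coated on the plate and anti-CD28, at 2 µg/ml each. How far each group was activated by it is not given. There is no unstimulated group. No source used here says whether replicates were separate animals or cultures, so a p-value here reflects no more than library-to-library spread, which may be technical.

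Total counts were 841892 to 1089003 in the 6 Treg libraries and 1358671 to 2255950 in the CD8 and CD4 libraries. Sampling noise was larger than the difference between Treg KO replicates 1 and 3, and than that between Treg WT replicates 1 and 2, so each pair was counted as 1 sample in means, which leaves n = 2 for each Treg group. Another 4 Treg pairs, each of a KO and a WT library, were as alike as these. Ebi3 itself stood at 30.7 ± 5.38 CPM in Treg KO and 35.3 ± 6.89 CPM in Treg WT (SD, n = 2 each), at 28.6 ± 4.97 CPM in CD8 KO and 28.9 ± 0.845 CPM in CD8 WT, and at 23 ± 2.84 CPM in CD4 KO and 46.2 ± 12.4 CPM in CD4 WT (SD, n = 3 each). Whether the counted 3' end of Ebi3 belongs to the part removed is not given, so its level need not check the genotype, and KO and WT are used as the labels of the libraries. Foxp3 had 0 or 1 count in every library, and the summed level of 4 Treg markers (Foxp3, Il2ra, Ikzf2 and Ctla4) was 158 to 284 CPM in the libraries labelled Treg, against 408 to 1076 CPM in the CD8 and CD4 libraries. The libraries labelled Treg also held both coreceptors, with 24.9 to 46.7 CPM of Cd8a and 34.4 to 68 CPM of Cd4. Of the 3 markers that could be tested, Il2ra was lower in all 4 comparisons of Treg with CD8 or CD4 (log2 -2.71 to -2.02) and Ctla4 in 3 of them. Ikzf2, which encodes Helios, went with the label against CD4, where it was higher by 1.51 in KO and 1.57 in WT, and was not called against CD8. Foxp3, which carries YFP/cre in every mouse and had next to no counts in any group, cannot speak for or against the label. On Il2ra, Ctla4 and the coreceptors the data go against the label, and Treg below is only the name of 6 libraries.

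Promoter sequence is shown for 3 members: Hspe1, which shares a divergent promoter with Hspd1 but parted from it in level, then Cct7, the CCT gene with the largest single difference between groups, and Cct3, which followed the other CCT genes least. The sequences are RefSeq promoter windows of GRCm38.p6, from 250 bases before to 50 bases after a transcript start, printed 5′ to 3′. Hspe1 lies at chr1:55087898-55088197 on the + strand, Cct7 at chr6:85451255-85451554 on the + strand and Cct3 at chr3:88296885-88297184 on the + strand. Capitals mark a heat shock element in Hspe1 and the CCAAT box, read on either strand, in Cct7 and Cct3.
Hspe1: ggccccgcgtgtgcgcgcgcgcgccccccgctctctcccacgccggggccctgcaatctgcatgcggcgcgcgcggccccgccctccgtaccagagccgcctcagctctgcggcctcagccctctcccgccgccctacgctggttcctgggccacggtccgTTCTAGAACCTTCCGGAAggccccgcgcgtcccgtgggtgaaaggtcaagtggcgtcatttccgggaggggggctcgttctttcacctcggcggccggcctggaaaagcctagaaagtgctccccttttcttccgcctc
Cct7: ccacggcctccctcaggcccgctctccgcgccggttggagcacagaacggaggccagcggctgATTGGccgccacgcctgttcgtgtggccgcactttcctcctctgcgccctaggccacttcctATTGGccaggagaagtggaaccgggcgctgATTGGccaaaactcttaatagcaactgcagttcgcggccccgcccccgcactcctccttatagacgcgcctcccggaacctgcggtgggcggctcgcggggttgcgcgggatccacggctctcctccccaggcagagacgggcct
Cct3: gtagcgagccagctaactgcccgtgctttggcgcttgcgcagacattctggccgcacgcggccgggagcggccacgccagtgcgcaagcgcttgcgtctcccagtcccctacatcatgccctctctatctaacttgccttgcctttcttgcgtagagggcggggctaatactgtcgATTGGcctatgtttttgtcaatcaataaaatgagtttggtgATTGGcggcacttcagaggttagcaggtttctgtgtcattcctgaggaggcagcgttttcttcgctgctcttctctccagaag

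The heat shock element searched for, TTCNNGAANNTTC on either strand, is the inverted repeat that the heat shock factor HSF1 binds. It occurred in 0.603% of the 32851 windows of the table, and among the 12 windows found for 9 of the 10 genes only in that of Hspe1 and an overlapping one of Hspd1. Both strands matched there, in copies that overlap at chr1:55088059-55088071 and chr1:55088064-55088076. Their centres lay 83 and 78 bases before the Hspe1 start used here. CCAAT stood in 5 of the 12 windows, those of 5 genes (Tcp1, Cct3, Cct6a, Cct7 and Hspd1), and in 37.4% of all windows. The GC box GGGCGG stood in 11 of the 12 windows, from all 9 genes, and in 35.7% of all windows. CCGGAAG, the core bound by ETS factors, stood in 5 of the 12 windows, from 5 genes (Tcp1, Cct2, Cct8, Hspd1 and Hspe1), and in 8.86% of all windows. The CCGGAAG match of Hspe1 overlaps its heat shock element. Cct4 had no window.

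In the libraries labelled Treg, 7 of the 8 CCT genes were lower than in the CD8 and CD4 libraries of the same strain, by 1.59 to 2.6 fold. The largest difference was that of Cct7 and the smallest that of Tcp1. Cct3 stood closer to the other libraries, at 1.07 to 1.34 fold. Of the mitochondrial pair, Hspd1 was lower by 1.97 to 2.6 fold, while Hspe1, read from the other side of the same promoter, was higher in both WT comparisons.

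**Figure D1:**
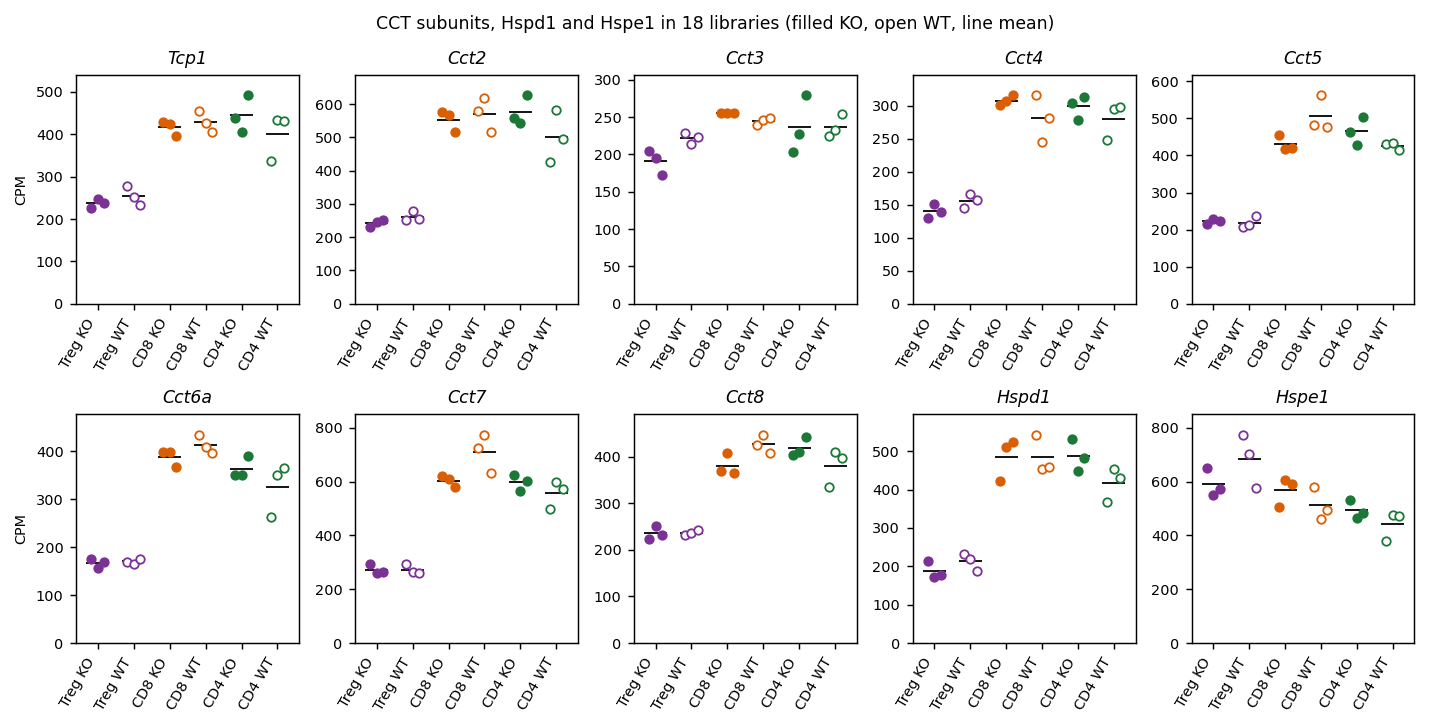
Level of each chaperonin gene in CPM (counts relative to the TMM-scaled library size, linear axes starting at 0) in the 18 libraries, filled points KO and open points WT, with a line at the mean of the 3 libraries. In 8 of the 10 panels all 6 Treg points lie below all 12 CD8 and CD4 points, and Cct3 and Hspe1 are the exceptions.

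Cct7, the eta subunit (ENSMUSG00000030007), lies on chromosome 6 at 85451514 to 85468475 in GRCm38. It measured 294, 261 and 264 CPM in Treg KO and 294, 265 and 259.9 CPM in Treg WT. It measured 619.8, 611 and 579.6 CPM in CD8 KO and 725, 774 and 630.4 CPM in CD8 WT. The CD4 libraries gave 625, 565 and 603 CPM in KO and 498, 598 and 574 CPM in WT. Every Treg library lay below every other library, and the lowest of those others, CD4 WT replicate 1, was still well above the highest Treg library. The log2 fold change of Treg over CD8 was -1.14 (SE 0.10, adjusted p = 7.47e-11) in KO and -1.38 (SE 0.10, adjusted p = 8.39e-13) in WT. That of Treg over CD4 was -1.13 (SE 0.10, adjusted p = 6.51e-11) in KO and -1.03 (SE 0.10, adjusted p = 6.94e-10) in WT. These are edgeR quasi-likelihood tests, adjusted by the Benjamini-Hochberg method over all 12693 genes, with a threshold of 0.05 on the adjusted p. They take the 3 libraries of each Treg group as separate samples. With the near-identical pairs summed, which leaves 2 samples in each Treg group, Cct7 gave -1.15 (SE 0.11, adjusted p = 7.53e-09 by edgeR) against CD8 in KO, and all 40 results of the 10 genes in the 4 Treg comparisons kept their direction and their side of the threshold. Of those called, the closest to it were Cct3 against CD4 in KO (adjusted p = 0.046) and Hspe1 against CD8 in WT (adjusted p = 0.0145). The alike pairs of a KO and a WT Treg library were kept apart in this fit, so its Treg samples need not be independent.

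Cct2, the beta subunit, measured 229.8, 246 and 252 CPM in Treg KO and 253, 278 and 255 CPM in Treg WT. The CD8 libraries held 577, 568 and 515 CPM in KO and 579, 619 and 515 CPM in WT, and the CD4 libraries 559, 542 and 626 CPM in KO and 426, 581 and 494 CPM in WT. The Treg libraries again formed a group of their own, and CD4 WT replicate 1 was the lowest of the rest. The log2 fold change of Treg over CD4 was -1.25 in KO and -0.94 in WT, and that of Treg over CD8 was -1.19 in KO and -1.12 in WT.

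Cct5, the epsilon subunit, averaged 224 ± 7.84 CPM in Treg KO and 223 ± 18.9 CPM in Treg WT (SD, n = 2 each). It averaged 431 ± 21.8 CPM in CD8 KO and 507 ± 47.5 CPM in CD8 WT, and 465 ± 38 CPM in CD4 KO and 427 ± 11.1 CPM in CD4 WT (SD, n = 3 each). The Treg libraries, at 207 to 236 CPM, lay below the range of the others, 414 to 562 CPM, and log2 fold changes were between -1.21 and -0.95. Cct6a, the zeta subunit, had the largest difference of the CCT genes between Treg and CD8 in KO (log2 -1.22). Its Treg libraries held 156 to 176 CPM, against 264 to 435 CPM elsewhere, with log2 fold changes between -1.28 and -0.94.

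Cct4, the delta subunit, stood at 130.1 to 167 CPM in Treg and at 246 to 316 CPM in the other libraries, with log2 fold changes between -1.13 and -0.85. Tcp1, the alpha subunit and the founding member of the family, stood at 227 to 279 CPM in Treg and at 336 to 492 CPM elsewhere, with log2 fold changes between -0.91 and -0.67. Cct8, the theta subunit, stood at 224 to 252 CPM in Treg and at 334 to 447 CPM elsewhere, with log2 fold changes between -0.85 and -0.69. For each of these 3 genes, all 6 Treg libraries lay below all 12 others, and all 4 comparisons passed the test. The last exon of Cct8 overlaps an exon of Usp16 on the opposite strand, which held 125 to 308 counts, and since the strand setting of the counting is not given in the sources used here, the split of reads between them is uncertain. The last exon of Tcp1 also overlaps an exon on the opposite strand, of Acat3, for which no counts were found. The count of Tcp1 may therefore depend on the strand setting too.

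Cct3, the gamma subunit, did not follow the others to the same extent. It measured 205, 195 and 173 CPM in Treg KO and 228, 214 and 223 CPM in Treg WT. The CD8 libraries gave 256, 255 and 256 CPM in KO and 239.9, 246 and 249 CPM in WT, and the CD4 libraries 203, 227 and 279 CPM in KO and 224, 233 and 254 CPM in WT. The Treg and CD4 libraries overlapped, and the Treg libraries of each strain lay just below its CD8 libraries. The log2 fold change was -0.42 (SE 0.11, adjusted p = 0.00189) against CD8 and -0.30 (SE 0.11, adjusted p = 0.0195) against CD4 in KO, and both passed. In WT it was -0.15 (SE 0.11, adjusted p = 0.259) against CD8 and -0.10 (SE 0.11, adjusted p = 0.474) against CD4, by the same edgeR test, and neither passed. The KO call against CD4 was lost without CD4 KO replicate 3 (adjusted p = 0.184) or without Treg KO replicate 3 (adjusted p = 0.103). The WT value against CD8 passed by edgeR when libraries were scaled by total count (-0.26, adjusted p = 0.039) and with no filter on low counts (-0.32, adjusted p = 0.0178). Whether Cct3 passed the threshold there, though not its direction, thus depended on the scaling and on the filter.

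As a share of the summed tags of the 8 CCT genes, Cct3 made up 12.1%, 11.2% and 10.3% in Treg KO and 12.6%, 12% and 12.5% in Treg WT. It made up 7.52%, 7.53% and 7.96% in CD8 KO and 6.56%, 6.61% and 7.41% in CD8 WT, and 6.07%, 7.08% and 7.64% in CD4 KO and 8.12%, 6.99% and 7.87% in CD4 WT. All 6 Treg libraries had a larger Cct3 share than all 12 others. This share and the ratio of the mitochondrial pair given next were computed after the levels had been seen and carry no test. The summed CCT level itself was 1717 ± 33.1 CPM in Treg KO and 1789 ± 10.9 CPM in Treg WT (SD, n = 2 each), against 3337 ± 106 CPM in CD8 KO, 3583 ± 194 CPM in CD8 WT, 3401 ± 226 CPM in CD4 KO and 3109 ± 305 CPM in CD4 WT (SD, n = 3 each). Apart from the Treg groups, neighbours in the order of these sums overlapped.

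Hspd1 (ENSMUSG00000025980) and Hspe1 (ENSMUSG00000073676) lie head to head on chromosome 1, at 55077835 to 55088243 on the - strand and at 55088132 to 55091307 on the + strand in GRCm38. Hspd1 measured 214, 173 and 177 CPM in Treg KO and 233, 218 and 187 CPM in Treg WT. It measured 422, 510.5 and 525 CPM in CD8 KO and 543, 454 and 458 CPM in CD8 WT, and 532, 448 and 481 CPM in CD4 KO and 367, 454 and 429.7 CPM in CD4 WT. All Treg libraries lay below all others. The log2 fold change of Treg over CD4 was -1.38 (SE 0.12, adjusted p = 5.7e-11 by edgeR) in KO and -0.98 (SE 0.12, adjusted p = 4.95e-08) in WT. Against CD8 it was -1.37 in KO and -1.19 in WT.

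Hspe1 measured 649, 549 and 573 CPM in Treg KO and 774, 702 and 577 CPM in Treg WT. The CD8 libraries gave 505, 605 and 591 CPM in KO and 578, 460.3 and 495 CPM in WT, and the CD4 libraries 532, 464 and 484 CPM in KO and 380.3, 475 and 473 CPM in WT. The Treg libraries lay above the CD4 libraries of their strain and overlapped the CD8 libraries, where Treg WT replicate 3 and CD8 WT replicate 1 were nearly equal. In WT, Hspe1 was higher in Treg than in CD4, by 0.62 on the log2 scale (SE 0.11, adjusted p = 3.35e-05 by edgeR), and higher than in CD8, by 0.42 (SE 0.11, adjusted p = 0.00203). In KO the difference from CD4 was 0.26 (SE 0.11, adjusted p = 0.0533), which missed the threshold and passed it without CD4 KO replicate 1 (adjusted p = 0.0443). The KO difference from CD8 was 0.06 (SE 0.11, adjusted p = 0.708), and it was -0.03 when libraries were scaled by total count and -0.11 with no filter on low counts, so it has no firm sign.

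The ratio of Hspe1 tags to Hspd1 tags was 3.03, 3.17 and 3.24 in Treg KO and 3.32, 3.23 and 3.08 in Treg WT. It was 1.2, 1.18 and 1.13 in CD8 KO and 1.07, 1.01 and 1.08 in CD8 WT, and 1, 1.03 and 1 in CD4 KO and 1.04, 1.05 and 1.1 in CD4 WT. The ratio is set side by side across libraries only, since tags of different genes need not be caught equally well. It varied little within a group, although both genes did. Across the 12 CD8 and CD4 libraries their log2 CPM went together with r = 0.88 and across the 6 Treg libraries with r = 0.97, whereas over all 18 libraries r was -0.47, a description of points that share depth and scaling within each library. The 5 annotated pseudogenes named after Hspd1 held 172 counts in all, 1.42% of those of Hspd1, and the 6 named after Hspe1 held 3 counts. Copies under other names were not searched for.

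**Figure D2:**
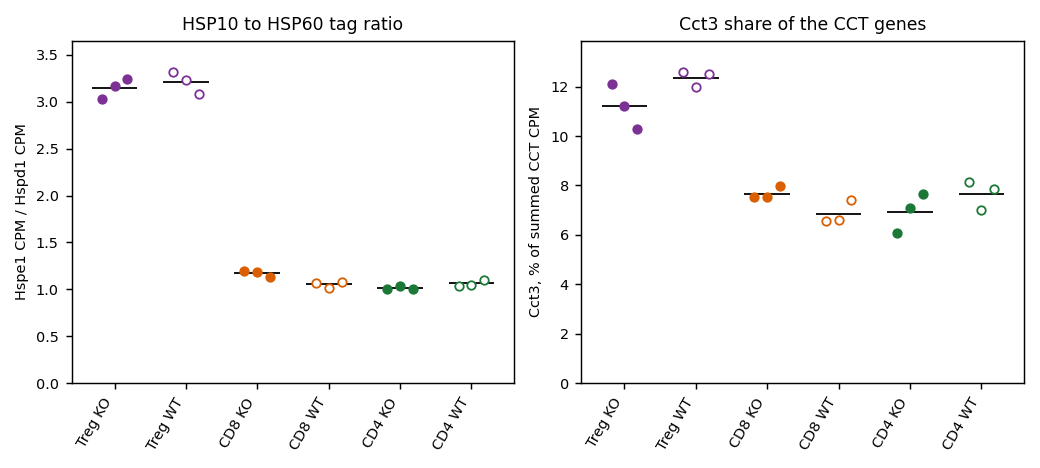
Left, Hspe1 CPM divided by Hspd1 CPM, and right, Cct3 as a percentage of the summed CPM of the 8 CCT genes, in each of the 18 libraries (filled points KO, open points WT, lines the mean of 3). The ratio sits between 3.03 and 3.32 in the Treg libraries and between 1 and 1.2 elsewhere, and the Cct3 share between 10.3% and 12.6% in Treg and between 6.07% and 8.12% elsewhere.

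Of the 10 genes, 9 were called lower in Treg than in CD8 in KO and 8 lower in WT, and 9 lower in Treg than in CD4 in KO and 8 lower in WT. Hspe1 was the 1 member called higher, in both WT comparisons. Changes were common among all genes in these comparisons. Lower calls took 19.0% of the 12693 genes for Treg against CD8 in KO and 21.4% in WT, and 20.3% for Treg against CD4 in KO and 18.2% in WT. Higher calls took 25.1%, 28.8%, 27.8% and 24.8% of genes in the same order of comparisons. Calls in either direction made up 44.2% for Treg against CD8 in KO, 50.3% in WT, 48.0% for Treg against CD4 in KO and 43.0% in WT. The median log2 fold change of the 8 CCT genes was -1.04 against CD8 in KO, -0.99 in WT, -1.07 against CD4 in KO and -0.89 in WT, while the median of all genes tested was 0.04, 0.10, 0.10 and 0.05 in the same order. All Treg libraries lay below all those they were compared with for 9 of the 10 genes against CD8 in KO and in WT, and for 8 against CD4 in KO and in WT. Among all genes that was so for 25.3%, 25.1%, 24.5% and 21.6% in the same order. The comparisons share libraries, and the 2 against CD8 use the same Treg libraries as the 2 against CD4. Treg libraries also matched across KO and WT, so the comparisons in the 2 strains need not be independent of each other.

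**Figure D3:**
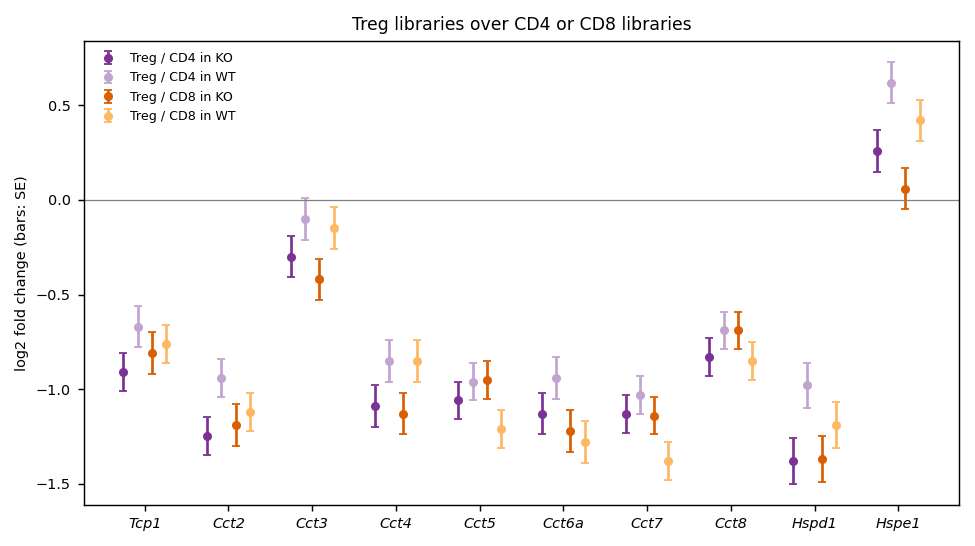
Log2 fold change of each gene in the Treg libraries over the CD4 or CD8 libraries of the same strain, with SE bars, from the edgeR fit of all 18 libraries. The 7 CCT genes other than Cct3 and Hspd1 lie between -1.38 and -0.67, Cct3 between -0.42 and -0.10 and Hspe1 between 0.06 and 0.62.

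The summed cycling-cell and myeloid markers set the Treg libraries apart from all others, while the sums of the other marker lists given here overlapped. The part of any of these in the differences was not tested. Markers of cycling cells (Mki67, Top2a, Cdk1 and Ccnb1) summed to 301 to 367 CPM in the Treg libraries, against 1100 to 1888 CPM in the other libraries, and all 4 of 4 were called lower in each Treg comparison. The 6 T cell receptor and CD3 genes summed to 785 to 1156 CPM in Treg and to 879 to 1737 CPM elsewhere. The 6 B cell markers summed to 4112 to 4552 CPM in Treg and to 2354 to 5652 CPM elsewhere, the 5 erythroid markers to 1186 to 1263 CPM against 631 to 1510 CPM, and the 6 myeloid markers to 44 to 63.5 CPM against 19.1 to 43.6 CPM. Of those tested, 2 to 4 of 6 B cell markers, 0 to 2 of 5 erythroid markers and 3 to 4 of 5 myeloid markers were called higher in a Treg comparison, and 0 to 4 of 6 T cell genes lower. The 3 NK markers summed to 24.6 to 37.3 CPM in Treg and to 17.3 to 52.7 CPM elsewhere, with Ncr1 at 0 in Treg WT and CD8 KO. In every library, those labelled CD8 and CD4 included, the B cell markers summed to more than the T cell genes. The libraries are therefore not shown to be T cells alone, and CD8 and CD4 are used as labels too. In bulk RNA of this kind, fewer cells of a type and less RNA per cell cannot be told apart, and depth, which was lower in the Treg libraries, cannot be told apart from the label.

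**Figure D4:**
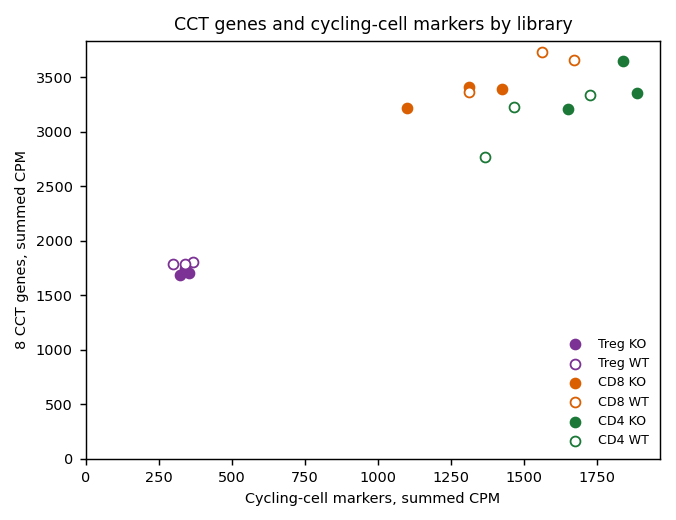
Summed CPM of the 8 CCT genes (vertical axis) against the summed CPM of 4 cycling-cell markers (horizontal axis), 1 point a library, filled KO and open WT. The Treg libraries sit together at 1688 to 1807 CPM of CCT and 301 to 367 CPM of the markers, apart from the CD8 and CD4 libraries.

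In the rankings of likeness, predicted genes (Gm numbers, Rik names or no symbol) were passed over. The genes whose log2 CPM then most resembled the mean of the 8 CCT genes over the 18 libraries were Mcm3 (r = 0.996), part of the helicase that unwinds DNA for replication, Galk1 (0.991), a galactose kinase, and Tubb5 (0.990), a beta tubulin. Ybx1 (0.989) and Ybx3 (0.988), which bind RNA and DNA, came next. Such likeness was common, as 330 of 12683 other genes had an r over 0.95, and the 18 libraries fall into 2 clusters, Treg and the rest. For the mean of Hspd1 and Hspe1 only Siva1, a mediator of apoptosis, exceeded 0.95 (r = 0.979). Hnrnpc (0.936), Bsg (0.929), Lias (0.928) and Il12rb2 (0.919) followed. Among the members, pairs of CCT genes other than Cct3 had r between 0.93 and 0.98 over 18 libraries and a median of 0.61 over the 12 CD8 and CD4 libraries and of -0.10 over the 6 Treg libraries, all of them descriptions.

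Among proteins that CCT folds, most tubulin and actin genes were lower in the Treg libraries. Of 13, 9 were lower and 1 higher in Treg against CD8 in KO, 8 and 1 in WT, and 9 and 1 against CD4 in both strains. Tubb5 stood at 312 to 343 CPM in Treg KO and 327 to 338 CPM in Treg WT, against 908 to 1018 CPM in CD4 KO and 619 to 950.0 CPM in CD4 WT, with log2 fold changes of -1.54 in KO and -1.32 in WT. Actg1, gamma actin, had log2 fold changes of -1.87 (SE 0.25) against CD4 and -2.15 (SE 0.24) against CD8 in KO. Its level was low, at 8.51 to 15.3 CPM in Treg KO, 38.5 to 47.7 CPM in CD4 KO and 49.3 to 58.4 CPM in CD8 KO. The size of its fold changes is therefore less certain than for Tubb5 (SE 0.12). Tubb3, a beta tubulin best known from neurons, was the 1 gene of the list that was higher. It stood at 14.7 to 15.8 CPM in Treg KO and 16.8 to 23.4 CPM in Treg WT, against 2.09 to 3.94 CPM in CD4 KO and 3.94 to 5.32 CPM in CD4 WT (log2 2.18 in KO and 1.97 in WT). Of 7 genes of WD40 proteins, 4 were lower and 1 higher in every comparison except Treg against CD8 in KO, where 5 were lower and 1 higher. Cdc20, an activator of the anaphase-promoting complex and itself a gene of dividing cells, had the largest differences (log2 -2.75 against CD8 in KO and -3.36 in WT, -2.71 against CD4 in KO and -2.72 in WT), and Mlst8, a subunit of the mTOR complexes, was the higher one (log2 0.63 to 0.78).

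The helpers of CCT were less uniform. Of 8 prefoldin genes and relatives, 2 were higher and 1 lower in Treg against CD8 in KO, 2 and 3 in WT, 1 and 3 against CD4 in KO and 2 and 2 in WT. Pdrg1, a prefoldin-like protein, was higher in all 4 comparisons, at 92.4 to 108 CPM in Treg against 45.6 to 80.9 CPM elsewhere, with log2 fold changes between 0.63 and 0.76. Pfdn4, a prefoldin subunit, was lower in 3 of them (log2 -0.75 against CD4 in KO, -0.73 against CD4 in WT and -0.98 against CD8 in WT). Of 3 phosducin-like cofactors only Pdcl3 was called, lower in all 4 comparisons, at 9.82 to 15.8 CPM in Treg KO and 10.4 to 25.8 CPM in Treg WT, against 26.5 to 51.7 CPM elsewhere. Of 6 tubulin folding cofactors 0 were called in the KO comparisons by edgeR, with 0 at an unadjusted p under 0.05 (50.5% of all genes against CD8 and 53.5% against CD4), and in WT Tbce was higher against CD4 (log2 0.59) and against CD8 (0.47) and Tbcd lower against CD8 (-0.89). Of 4 chaperonin-like paralogs 2 could be tested, and Bbs12 was lower in both KO comparisons (log2 -1.68 against CD8 and -1.47 against CD4). Its level was near the floor of 3 counts, at 1.22 to 3.83 CPM in Treg KO. It was 4.79 to 10.3 CPM in CD8 KO and 5.62 to 6.79 CPM in CD4 KO, so its fold changes are uncertain.

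In the cytosolic HSP70 and HSP90 system, 15 of 22 genes were lower and 1 higher in Treg against CD8 in KO, 12 and 3 in WT, 10 and 2 against CD4 in KO and 8 and 3 in WT. Bag3, a cochaperone of HSP70, stood at 4.79 to 12.3 CPM in Treg and at 18.9 to 27.7 CPM elsewhere, and Dnajc7, a cochaperone that binds both HSP70 and HSP90, was higher in all 4 comparisons (log2 between 0.69 and 0.77). Of 11 genes of mitochondrial HSP70 and the matrix proteases, 5 were lower and 0 higher against CD8 in KO, 6 and 0 in WT, 5 and 1 against CD4 in KO and 2 and 1 in WT. Lonp1, the LON protease, was among the lower ones in all 4 (log2 between -1.46 and -0.69). Hspa9, the mitochondrial HSP70 that hands proteins to HSP60, was lower in 3 of the 4 (log2 -0.55 against CD8 and -0.51 against CD4 in KO and -0.53 against CD8 in WT). Of 16 import genes, 8 were lower against CD8 and 8 against CD4 in KO with 0 higher, and 8 and 6 were lower in WT with 1 higher each. Of 11 chaperones of the endoplasmic reticulum 9 were lower against CD8 in KO, 8 in WT, 9 against CD4 in KO and 7 in WT, with 1 higher in all, Dnajb9 against CD4 in KO. The largest difference was that of Sdf2l1, an HSP40-binding luminal protein, at 4.79 to 11 CPM in Treg and 29.1 to 49.6 CPM elsewhere. Over these related lists together, lower calls took 54.5% of 99 tested genes against CD8 in KO and 51.5% in WT, and 50.5% against CD4 in KO and 39.4% in WT, beside the 19.0%, 21.4%, 20.3% and 18.2% of all genes given above. Some lists were at or below the share of all genes. These were the tubulin folding cofactors in all 4 comparisons, the prefoldin list against CD8 in KO, the chaperonin-like paralogs in both WT comparisons, and the list of mitochondrial HSP70 and proteases against CD4 in WT, at 18.2%. Lower calls thus occurred in several chaperone families but not in all, and no test here sets the CCT genes apart from these.

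Between the CD8 and CD4 libraries the chaperonin genes differed little. In WT, 2 of the 10 were called higher in CD8, where 3.49% of all genes were called higher and 5.37% in either direction. Cct7 averaged 710.0 ± 73.2 CPM in CD8 WT and 557 ± 52 CPM in CD4 WT (SD, n = 3 each), which is 0.35 higher on the log2 scale (SE 0.09, edgeR adjusted p = 0.0153). Cct6a averaged 413 ± 19.9 CPM in CD8 WT and 327 ± 54.9 CPM in CD4 WT (SD, n = 3 each), which is 0.33 higher on the log2 scale (SE 0.10, edgeR adjusted p = 0.0378). The 3 CD8 libraries lay above the 3 CD4 libraries for both genes and for Cct5, and the other 7 genes overlapped, against 11.1% of all genes with all CD8 libraries higher. The log2 fold changes of the 10 genes ran from 0.00 for Cct4 to 0.35.

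Both calls were lost without CD8 WT replicate 1, without CD8 WT replicate 2 and without CD4 WT replicate 1, where the log2 fold changes were 0.26 for Cct7 (adjusted p = 0.116) and 0.19 for Cct6a (adjusted p = 0.317). They were also lost when only these 2 groups entered the fit, with nearly the same log2 fold changes and larger errors (0.34, SE 0.12, adjusted p = 0.169 for Cct7, and 0.33, SE 0.13, adjusted p = 0.234 for Cct6a). CD4 WT replicate 1 had the lowest level of 7 of the 10 genes among the 12 CD8 and CD4 libraries. It also had the highest summed B cell markers of these (5652 CPM) and erythroid markers (1510 CPM), the lowest T cell genes (879 CPM) and the lowest depth, and their part in the difference was not tested. In KO, 0 of the 10 were called between CD8 and CD4 by edgeR, by DESeq2 or by limma-voom, 0 reached an unadjusted p under 0.05, and log2 fold changes ran from -0.14 to 0.20. Of all genes, 3.58% were called by edgeR and 15.4% had an unadjusted p under 0.05.

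Of the 99 tested genes in the related lists, 6 (6.06%) were called higher in CD8 than in CD4 in WT, against 3.49% of all genes, and 0 lower. These were Tubg1, gamma tubulin (log2 0.65), the HSP90 cochaperones Stip1 (0.45) and Fkbp4 (0.35), Dnajb6 (0.31), the import chaperone Timm13 (0.47) and Calr (0.32), the lectin chaperone calreticulin. These calls changed when single libraries were left out. Without CD8 WT replicate 1 or without CD4 WT replicate 1, 0 of the 6 were called, without CD8 WT replicate 2 only Tubg1, and without CD4 WT replicate 3 only Tubg1, Timm13 and Calr. Without CD8 WT replicate 3, 12 genes of the lists were called, among them 5 of the 6. Of all genes, 682 were called with every library, 306 without CD8 WT replicate 2 and 1265 without CD8 WT replicate 3. With only these 2 groups in the fit 0 of the 6 were called, and by DESeq2 3. In KO the 1 call among the 99 genes was Tubb2b (0.53), where 3.58% of all genes were called, and it was not called by DESeq2 or without CD8 KO replicate 2 or 3 or CD4 KO replicate 1 or 2.

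No chaperonin gene passed the threshold between KO and WT within any of the 3 cell labels. In the CD8 libraries 0 of the 10 were called between KO and WT by edgeR, where 0.165% of all genes were. An unadjusted p under 0.05 was reached by 2, which is near the 16.3% of all genes that did. Cct5 measured 456, 416 and 421 CPM in CD8 KO and 482, 562 and 478 CPM in CD8 WT. The KO libraries all lay below the WT libraries, and the log2 fold change was -0.23 (SE 0.09, adjusted p = 0.182). Cct7 gave the same estimate of -0.23 (SE 0.09, adjusted p = 0.187), with KO libraries of 579.6 to 619.8 CPM and WT libraries of 630.4 to 774 CPM, and it passed without CD8 WT replicate 3 (-0.31, adjusted p = 0.0477). Cct8 was the remaining gene with all KO libraries below WT (log2 -0.17, adjusted p = 0.349). Cct3 had all KO libraries above WT, by 0.06 on the log2 scale (adjusted p = 0.823). Of all genes, 8.19% had all CD8 KO libraries below CD8 WT and 9.17% had them all above.

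The 95% intervals of the 10 log2 fold changes in CD8 reached from -0.43 to 0.38, so that differences of that size are not shown to be absent. B cell markers summed to 3644 to 5000 CPM in CD8 KO and 2354 to 3981 CPM in CD8 WT, erythroid markers to 989 to 1480 CPM in KO and 631 to 1044 CPM in WT, and cycling-cell markers to 1100 to 1424 CPM in KO and 1311 to 1670 CPM in WT. Their part in the lower Cct5, Cct7 and Cct8 values was not tested. In the CD4 libraries 0 of the 10 were called by edgeR (0% of all genes), and 2 reached an unadjusted p under 0.05, as 7.32% of all genes did. Log2 fold changes there ran from -0.01 for Cct3 to 0.22 for Hspd1, with intervals between -0.23 and 0.45. All 10 overlapped between the groups, while 9.60% of all genes did not. Hspd1 measured 532, 448 and 481 CPM in CD4 KO and 367, 454 and 429.7 CPM in CD4 WT, and the lowest value was again that of WT replicate 1.

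In the libraries labelled Treg 0 of the 10 were called between KO and WT by edgeR (0% of all genes), 0 reached an unadjusted p under 0.05, as 2.16% of all genes did, and log2 fold changes ran from -0.21 for Hspe1 and Cct3 to 0.02 for Cct5, with intervals between -0.46 and 0.25. Cct2 and Cct3 had all KO libraries below WT, where 4.94% of all genes did. Because Treg libraries matched across the genotype labels, these values need not compare independent samples. DESeq2 and limma-voom called 0 of the 10 in each of these 3 KO comparisons too. The difference of the KO effect between cell labels was called for 0 of the 10 in all 3 tests by edgeR, DESeq2 or limma-voom (0% of all genes each by edgeR). An unadjusted p under 0.05 was reached by 3 of the 10 for CD8 against CD4 (17.9% of all genes), by 3 for Treg against CD4 (4.33% of all genes) and by 1 for Treg against CD8 (7.52% of all genes). The largest of them in size was that of Hspd1 between Treg and CD4, -0.40 (SE 0.16, adjusted p = 0.988 by edgeR), and the one with the lowest p was that of Cct5 between CD8 and CD4, -0.36 (SE 0.12, adjusted p = 0.128 by edgeR). That of Cct7 between CD8 and CD4, -0.33 (SE 0.13, adjusted p = 0.157), passed without CD8 WT replicate 3 (-0.42, adjusted p = 0.0441). Of the 99 tested genes in the related lists 0 were called between KO and WT within any cell label by edgeR. An unadjusted p under 0.05 was found for 17 in CD8, 8 in CD4 and 1 in Treg, where 16.3%, 7.32% and 2.16% of all genes had one.

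**Figure D5:**
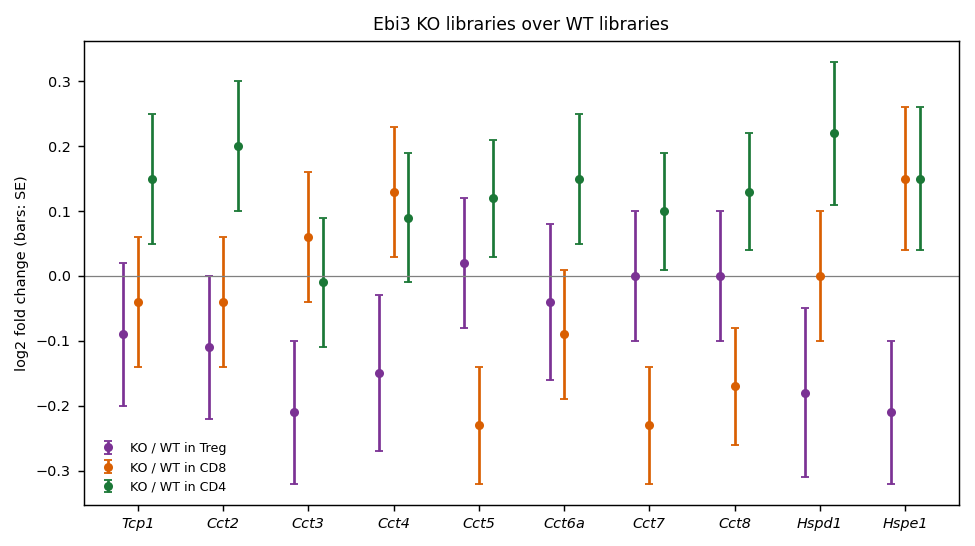
Log2 fold change of each chaperonin gene in KO over WT libraries with SE bars, for the libraries labelled Treg, CD8 and CD4, from the edgeR fit of all 18 libraries. All estimates lie between -0.23 and 0.22, with Cct5, Cct7 and Cct8 lowest in CD8 and most CD4 estimates above 0.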

How the data were processed

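QuantSeq 3' FWD libraries with unique molecular identifiers were made from 500 ng of total RNA, per the labels' protocols. The authors deposited whole-number tag counts for each Ensembl gene, without normalization. The submitters' processing notes name GRCm38 (mm10), Subread 2.0.0 with featureCounts, UMI-tools 1.0.0, STAR 2.5.3a, cutadapt 2.10 and FastQC, without order or settings. The annotation release, the strand setting and the treatment of multiply aligned reads were not stated. Symbols and coordinates came from GENCODE M21, which named 55141 of 55487 genes. The table has 0 columns that belong to no labelled library.

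The chaperonin genes, the 12 pathway lists and the 9 marker lists were chosen with earlier results of these data known. Counts were fitted in R 4.3.3 with edgeR 4.0.16 (filterByExpr with a minimum count of 10, TMM scaling, robust quasi-likelihood fit of 6 group means over 18 libraries, 12 residual degrees of freedom, common dispersion 0.00977). The tests were two-sided. The 95% intervals use the t distribution with those degrees of freedom. The tests use more, since they borrow spread across genes, so the intervals are slightly wider than the tests imply. Hspd1 between KO and WT in CD4 had an unadjusted p of 0.0414 by edgeR and an interval of -0.01 to 0.45. The tests were also run on simulated data with independent libraries and the same spread for all genes. Such data do not check them for libraries as alike as the Treg ones. CPM are counts relative to the TMM-scaled library size, and 3 counts correspond to 1.33 to 3.56 CPM. Intervals and floors cover counting and between-library error only. Alternatives were RLE and total-count scaling, no filter, DESeq2 1.42.0, limma-voom (limma 3.58.1), a replicate block, the compared groups alone, near-identical libraries summed into 1 sample (the fit above takes all 18 as separate) and leaving out each replicate. The genes named outside the 10 members and Ebi3 are, for each pathway list and comparison, up to 4 past the threshold with the largest fold change, and the 5 most alike genes, passing over predicted ones.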

Additional observations from a re-analysis of the deposited data

How the results depend on the processing

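The Treg differences of the members kept their direction under every scaling, filter, tool and left-out library, except Hspe1 against CD8 in KO (0.06), which was -0.03 with total-count scaling, -0.11 with no filter, and -0.03 to 0.1 with 1 library left out. For Treg against CD4 in WT, total-count scaling put the median of all genes at -0.06 (0.05 with TMM) and the calls at 2645 higher and 2935 lower, against 3151 and 2313 with TMM, without changing the direction of other called members.

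Other estimates near 0 changed sign. In CD8 against CD4 in KO, Cct7 (0.01) was -0.02 with RLE scaling and with DESeq2, -0.01 with only the groups compared, and -0.03 to 0.04 with 1 library left out, while the left-out ranges were -0.01 to 0.07 for Cct4 and -0.07 to 0.08 for Hspd1. In WT they were -0.04 to 0.16 for Tcp1 and -0.01 to 0.1 for Cct3. In KO against WT, Cct3 in CD4 (-0.01) was 0.01 with RLE scaling and DESeq2 and -0.14 to 0.09 with 1 library left out, Cct2 in CD8 ran from -0.11 to 0.02, and in Treg Cct5 from -0.01 to 0.09 and Cct6a from -0.07 to 0.01. For the difference of the KO effect between CD8 and CD4, Cct4 (0.04) was -0.01 with RLE scaling and with DESeq2 and -0.05 to 0.13 with 1 left out, and Cct3 ran from -0.03 to 0.2. Between Treg and CD8, Tcp1 ran from -0.11 to 0.03 and Cct2 from -0.13 to 0.01.

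Members called in CD8 against CD4 in WT numbered 2, but 1 with DESeq2 and with near-identical libraries summed, 0 with only the groups compared and 0 to 2 with 1 library left out. The left-out range was 0 to 1 for KO against WT in CD8 and for the difference of the KO effect between CD8 and CD4. Genes called in CD8 against CD4 numbered 693 with no filter in KO (455 otherwise) and 288 to 458 with 1 library left out, and in WT (682) 413 with DESeq2, 226 with only the groups compared and 306 to 1265 with 1 left out. In KO against WT in CD8 the 21 calls (7 higher, 14 lower) became 35 with RLE scaling (8 and 27), 447 with no filter, 66 with DESeq2, 5 with limma-voom, 0 with only the groups compared, 1 with near-identical libraries summed and 0 to 646 with 1 left out. In CD4 the 0 calls became 22 with no filter, 1 with DESeq2, 2 with only the groups compared and 0 to 2 with 1 left out. For the difference between CD8 and CD4 they became 1 with total-count scaling, 602 with no filter, 54 with DESeq2 and 0 to 859 with 1 left out, and between Treg and CD8 46 with no filter, 1 with DESeq2, 1 with only the groups compared and 0 to 4 with 1 left out. The causes were not tested.

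No pairing by replicate number was seen in how libraries deviated from their group means. Of 45 pairs with the same number, 3 deviated together with r over 0.1 (range -0.34 to 0.307). Of 90 matches, each made among 3 libraries, 25 were best with the own number. Treg libraries that differ by no more than sampling noise can hardly show a pairing. A shared animal or batch behind the same number is therefore not excluded. With the replicate number as a block, 12 genes were called for KO against WT in CD8, and the count of members called did not change in any comparison. Treg libraries had the lowest depth, which limits the precision of their values.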
